A study of Bos taurus with 20 samples.

Results

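Nuclear genes of the mitochondrial respiratory chain and ATP synthase were examined in maternal blood. They were taken from the deposited gene counts by NCBI cattle symbol: symbols starting with NDUF, UQCR, ATP5 or COX4 to COX8, together with SDHA, SDHB, SDHC and SDHD. Of the 37063 genes in the count files, 96 had such a symbol, and 90 of these had at least 10 counts in at least 5 cows, as did 16206 genes in all. By the part of the chain that they belong to, the 90 genes were 7 core subunits of complex I, 30 accessory subunits of complex I, 8 assembly factors of complex I, 4 genes of complex II, 8 of complex III, 15 of complex IV and 18 of ATP synthase.

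Oxidative phosphorylation is carried out in the inner mitochondrial membrane. Complex I (NADH dehydrogenase, NDUF genes) and complex II (succinate dehydrogenase, SDH genes) pass electrons to ubiquinone, complex III (UQCR genes) passes them to cytochrome c, and complex IV (cytochrome c oxidase, COX genes) passes them to oxygen. Complexes I, III and IV pump protons, and ATP synthase (ATP5 genes) uses the gradient to make ATP. A few core subunits are encoded by mitochondrial DNA and all others by the nucleus, so that each complex except complex II is built from the products of both genomes. In blood, lymphocytes, monocytes and platelets contain mitochondria, neutrophils rely mostly on glycolysis, and mature mammalian erythrocytes have lost theirs.

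Blood was drawn at day 63 of gestation from 20 recipient cows, each carrying a female fetus from an in vitro produced embryo of Angus oocyte donors, and 1 library per cow was sequenced. The recipients were synchronized before embryo transfer, and no treatments were compared. The study describes them as lactating dairy cows in its methods and elsewhere as Angus, with ages spanning several years. The age of each cow is not in the sample labels. All cows formed a single group that differed in the weight of the calf at birth (calf BW). Calf BW ranged from 30 to 72.5 kg, with a mean of 45.0 ± 10.1 kg (SD, n = 20), and cows are named here by the BW of their calf. The study asked whether blood transcripts early in pregnancy were related to calf BW, and as in its own analysis the cow with the 72.5 kg calf was left out of tests on BW, which therefore used 19 cows.

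Each library held between 24632077 and 39892111 counts, with a median of 33412740. Markers of the main blood cells were present in all libraries: as summed counts-per-million values (CPM), the lowest and highest cows had 4842 and 7761 for 15 neutrophil genes, 1537 and 2403 for 15 T cell genes, 1243 and 2295 for 10 B cell genes, 674 and 1409 for 9 monocyte genes, 237 and 455 for 9 natural killer cell genes and 631 and 1825 for 10 platelet genes. Of 6 eosinophil markers, 3 were found in the files by symbol and 1 passed the count filter. Fewer cells of a type and less RNA per cell cannot be told apart in such samples.

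The library of the 39 kg calf was not a separate measurement. Its counts equalled, almost gene for gene, a weighted sum of the libraries of the 9 other cows with calves of 30 to 43 kg, each of which made up 9.90 to 11.8% of its counts and which together made up 98.3%. No other library contributed more than 0.679%. The median deviation of its genes from the best weighted sum of other libraries was 0.255%, against 7.05 to 17.1% for each of the other 19 libraries, and 40.6% of its genes lay within 1 count of that sum, against 1.93 to 3.67%. How this library came about was not tested. The tests were repeated without it, and the correlations of scores given below moved by 0.013 or less when it was left out. Levels and SDs include it. Leaving out any of those 9 cows does not remove its counts entirely while this library stays in.

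The library of the 50 kg calf also stood apart. It was the lowest of the 20 cows for 27 of the 90 respiratory chain genes, against 9.85% of all genes, and the highest for none. For 12 genes it lay more than 3 SD below the mean of the others. NDUFB4, an accessory subunit of complex I, was at 19 CPM in this cow and at 23.7 CPM or more in the others. ATP5F1A, the alpha subunit of the catalytic head of ATP synthase, was at 358 CPM against 431 CPM or more, and ATP5F1B, its beta subunit, at 65.2 CPM against 74.2 CPM or more. NDUFAF1, a complex I assembly factor, was at 7.59 CPM against 9.73 CPM or more. The groups differed in this cow. Their mean z-scores were -1.21 for ATP synthase and, in complex I, -1.04 for accessory subunits, -0.88 for assembly factors and -0.49 for core subunits. They were -0.48 for complex III, -0.10 for complex IV and 0.26 for complex II. The same cow had the highest neutrophil marker score of the 20 (1.29) and a T cell score of -0.95, and their part in its low values was not tested. The cow with the 41.5 kg calf was the lowest for 20 members, against 8.67% of all genes. The highest cow was most often that of the 37 kg calf, for 16 members (7.43% of all genes), or that of the 47.4 kg calf, for 13 (6.30%).

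Together, the 90 genes made up 0.369 to 0.470% of the counts of a cow. Their summed level was 3749 CPM in the lowest cow, 4219 in the median cow and 4660 in the highest, a coefficient of variation of 6.55%. Counts of a gene rise with the length of its transcript as well as with its abundance, and no lengths were used here, so the values below describe each gene across cows and give no order of abundance between genes. The median member of complex I had 34.6 CPM among core subunits, 21.8 CPM among accessory subunits and 9.79 CPM among assembly factors in the median cow. The corresponding values were 65.5 CPM for complex II, 30.4 CPM for complex III, 35.5 CPM for complex IV and 44.1 CPM for ATP synthase. The summed level of a group ranged among cows from 227 to 261 CPM for complex I core subunits and from 1119 to 1768 CPM for ATP synthase, with a coefficient of variation of 12.5%. Much of the latter came from ATP5IF1, without which the sum ranged from 946 to 1317 CPM and the coefficient was 7.41%.

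Within each group the deepest and the least counted genes were far apart. In complex I, NDUFS7, an iron-sulfur core subunit, had the fewest counts of the core subunits, with a median of 17.01 CPM. Among accessory subunits the medians were 128 CPM for NDUFB9 and 3.52 CPM for NDUFB2. Among assembly factors they were 17.5 CPM for NDUFAF6 and 3.29 CPM for NDUFAF2. In complex II, SDHA, the flavoprotein that oxidizes succinate, had a median of 141 CPM and SDHD, a membrane anchor, 27.4 CPM. In complex III, UQCRC1, a core protein, had 94.1 CPM and UQCR11 17.7 CPM.

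In complex IV, COX4I1, a large nuclear subunit, had 241, 281 and 320 CPM in the lowest, median and highest cow. COX6B2, known as a testis form, had a median of 0.507 CPM and no count in the cow with the 49.5 kg calf. In ATP synthase, ATP5F1A had a median of 499 CPM and ATP5ME, a small membrane subunit, 1.57 CPM. Even ATP5ME had 32 to 68 counts in every library.

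Several complex IV and ATP synthase subunits exist as alternative genes, and the counts were unequally divided among them. COX6A1 held 97.0% of the COX6A counts in the median cow and COX6A2, the heart and muscle form, 3.01%. COX6B1 held 98.8% of the COX6B counts. In the COX7A family, COX7A2L, which takes part in assembling respiratory supercomplexes, held 75.9%, COX7A2 held 20.5% and COX7A1, the heart and muscle form, 3.57%. The share of COX7A1 reached 9.17% in the cow with the 30 kg calf, where its level was 4.03 CPM, against a median of 1.67 CPM and a lowest value of 1.01 CPM. ATP5MC1, ATP5MC2 and ATP5MC3 encode the same mature subunit c, the ring of the rotor, and held 4.44, 68.4 and 27.0% of their summed counts. How reads shared by such copies were counted is not given in the sources used here, so the split between them is uncertain.

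The 6 matching symbols that did not pass the filter were mostly forms known from other tissues. COX8B and COX8C had 0 counts in all cows, which allows up to 0.00455 CPM (3 counts over all libraries, counting error only), whereas COX8A had a median of 19.8 CPM. COX4I2, known from lung, had 10 counts over all cows, NDUFA4L2, a hypoxia-responsive relative of NDUFA4, had 12, and the pseudogene COX7ALP1 had 8. NDUFA4 itself, which is now placed in complex IV, had a median of 21.0 CPM. COX7B2 had 162 counts, with at least 10 in 4 cows and up to 57 in the cow with the 53 kg calf, while COX7B had a median of 43.0 CPM.

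Most of the genes differed little among cows. The highest cow was below 1.5 times the lowest for 50 of the 90 genes and below 2 times for 80. The SD of the log2 CPM across cows had a median of 0.14 among the members, and it was below the median of all genes, 0.22, for 78 of the 90. Mitochondrial and cytosolic ribosomal protein genes had similar medians, 0.15 and 0.12. Among members the SD was smallest for COX7B and COX7A2L, each 0.075, and for NDUFV3, 0.081, so that COX7B spanned only 38.5 to 48.4 CPM. It was largest for COX6B2 (0.92), ATP5IF1 (0.64) and COX6A2 (0.60). For COX6B2 and COX6A2 this spread rests on few counts, 0 to 27 and 13 to 85 per cow. ATP5IF1 was deeply counted, and its spread is described below.

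**Figure D1:**
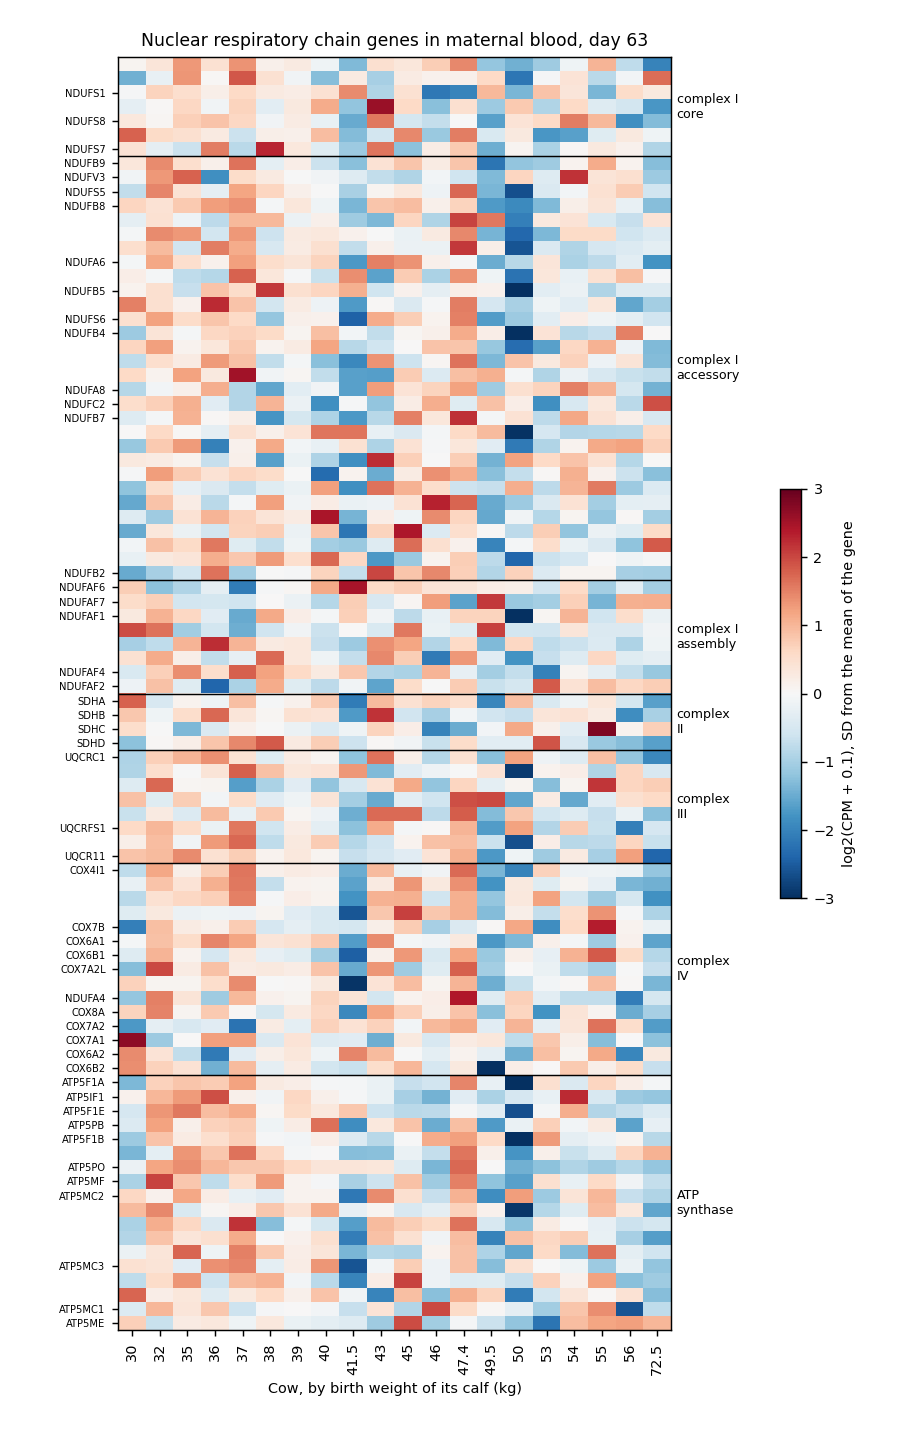
Level of each of the 90 nuclear respiratory chain genes (rows, grouped by complex) in each of the 20 cows (columns, ordered by calf BW in kg), as log2(CPM + 0.1) in SD from the mean of that gene over the cows. Names mark the genes that the text describes. Most members are low together in the cow with the 41.5 kg calf and high together in the cow with the 47.4 kg calf. In the cow with the 50 kg calf, ATP synthase and complex I accessory subunits are low on average, while complexes II and IV are not. The column of the 39 kg calf is pale because its library is close to a mean of 9 others.

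Members tended to be high in the same cows. The Pearson correlation of log2 CPM across the 20 cows had a median of 0.20 over the 4005 pairs of members, and 71.5% of the pairs were above 0. Over all 131309115 pairs of tested genes the median was -0.00185 and 49.7% were above 0. All correlations describe these 20 libraries, which share sequencing and normalization within a cow. The median was 0.24 for the 776 pairs within a group and 0.19 for the 3229 pairs between groups. Within groups it was 0.28 for complex IV, 0.27 for ATP synthase, 0.24 for complex I accessory subunits, 0.12 for complex II, 0.11 for complex I core subunits, 0.099 for complex III and 0.086 for complex I assembly factors. Leaving out the cow with the 50 kg calf raised the median to 0.16 for complex II and 0.23 for complex III. The same step lowered it to -0.080 for core subunits and 0.012 for assembly factors. Complex IV, ATP synthase and accessory subunits then had 0.27, 0.29 and 0.20. For comparison, the median in all 20 cows was 0.094 among 77 mitochondrial ribosomal protein genes (symbols MRPL or MRPS). Among 84 cytosolic ribosomal protein genes (RPL or RPS) it was 0.52.

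**Figure D2:**
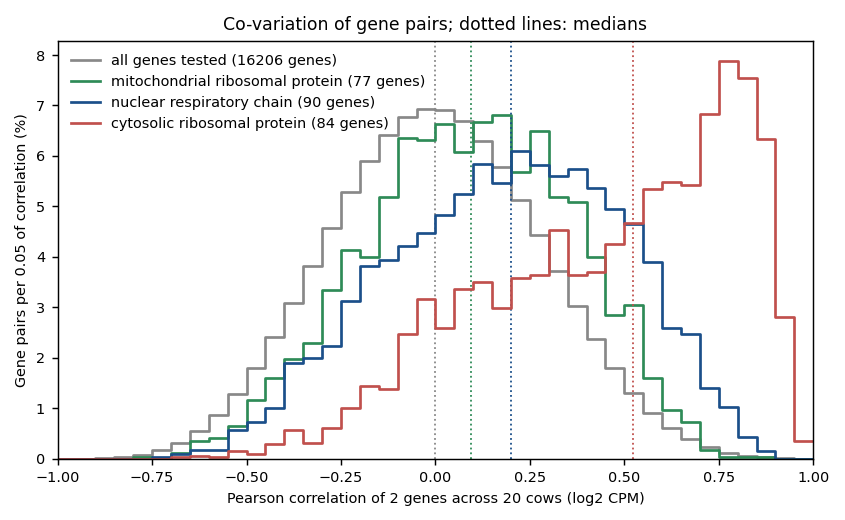
Distribution of the pairwise Pearson correlation of log2 CPM across 20 cows (x axis) as a share of pairs (y axis), for the respiratory chain genes, the mitochondrial and the cytosolic ribosomal protein genes and all tested genes. The respiratory chain genes, with a median of 0.20, lie to the right of all genes (-0.00185) and to the left of the cytosolic ribosomal protein genes (0.52).

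To rank single genes, each was correlated with the mean z-score of the other 89 members. This correlation was above 0 for 81 genes and above 0.5 for 37. Among the highest were NDUFB8 (0.87), COX4I1 (0.87), NDUFB9 (0.84) and NDUFS6 (0.84), which belong to complex I and complex IV. It was lowest for NDUFAF7 (-0.45) and NDUFAF6 (-0.38), both assembly factors of complex I, followed by SDHC (-0.30), a membrane anchor of complex II, NDUFS1 (-0.20), the largest core subunit of complex I, and NDUFC2 (-0.20). The first principal component of the 90 genes held 28.6% of their variance. The second held 17.7% and separated mainly the cow with the 50 kg calf, whose score was -0.74. The median pairwise correlation was 0.19 without this cow and 0.20 without the cow with the 39 kg calf.

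The mean z-score of the 90 genes was lowest in the cow with the 41.5 kg calf (-0.77) and highest in that of the 47.4 kg calf (0.75). Across the 20 cows it went with the cytosolic ribosomal protein score (Pearson r = 0.90, Spearman rho = 0.90), with r = 0.88 without the 2 cows farthest from the median of that score. For the mitochondrial ribosomal protein score these values were 0.86, 0.83 and 0.80. Among the genes outside the rule whose level was most like the score, chosen after their values were seen, were EIF1AX (r = 0.90), a translation initiation factor, and the ribosomal protein genes RPL36AL (0.90), RPL27 (0.89) and RPL35 (0.88). The most opposite were TSC22D2 (-0.87), SHOC2 (-0.85), BRAF (-0.85), APC (-0.85) and DNAAF4 (-0.84).

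Blood cell markers moved with the score to a lesser degree. The correlation was 0.54 for the T cell list (rho = 0.44, and 0.52 without the 2 farthest cows) and -0.63 for the B cell list (rho = -0.56, and -0.58). It was 0.11 for neutrophils, 0.38 without the cow with the 50 kg calf, 0.30 for monocytes, 0.23 for the erythroid list, 0.18 for platelets and 0.15 for natural killer cells. Their part in the co-variation of the respiratory chain genes was not tested. Total counts per library had an r of 0.013 with the score.

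**Figure D3:**
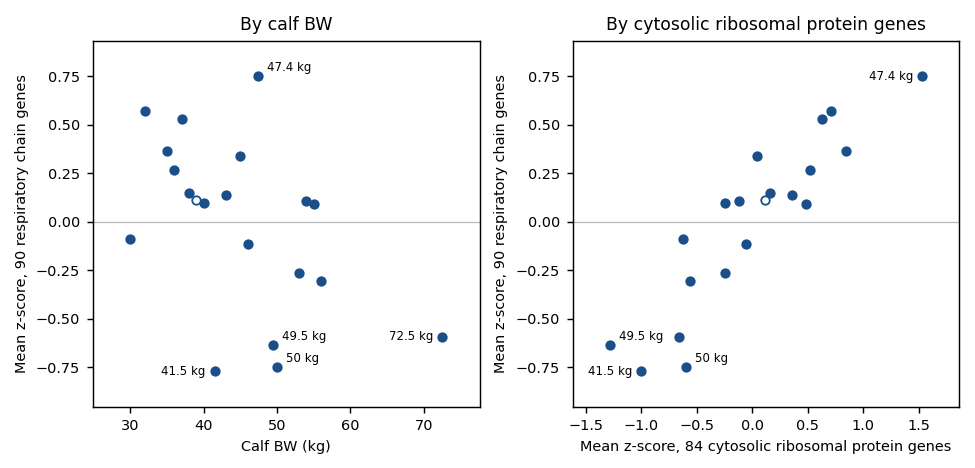
Mean z-score of the 90 respiratory chain genes in each cow (y axis) against calf BW in kg and against the cytosolic ribosomal protein score (x axes), with 1 point per cow and the cow with the 39 kg calf as an open circle. The score is higher where the ribosomal protein score is higher (r = 0.90) and lies lower on average in cows with heavier calves (r = -0.49), with wide scatter at each weight.

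The nuclear genes did not move with the mitochondrially encoded subunits. These 13 genes summed to 13027 CPM in the lowest cow, 16293 in the median cow and 17682 in the highest, and the correlation of their score with that of the nuclear members was 0.063 (rho = 0.065). The lowest cow was that of the 30 kg calf, whose mitochondrial score was -2.78 and in which 11 of the 13 genes were at their lowest. The score of 7 electron carriers and other complex III and IV genes outside the rule had an r of 0.69 with the members, and that of 53 assembly factors outside the rule an r of 0.52. The score of 15 regulators of respiratory genes had an r of -0.62.

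No respiratory chain gene was associated with calf BW after adjustment over all genes tested. In edgeR's quasi-likelihood test of the slope on BW in 19 cows, 0 of the 90 members and 0 of all 16206 genes had a Benjamini-Hochberg FDR below 0.05, and the smallest FDR among members was 0.146. Below an FDR of 0.1 were 51 genes (0.315%), none of them a member. Without the cow with the 39 kg calf, the smallest edgeR FDR was 0.157 over all genes and 0.230 among members. At an unadjusted p below 0.05 there were 10 members, or 11.1%, against 13.9% of all genes, so that members passed this level no more often than other genes. The slope was negative for 9 of the 10 (7.08% of all genes were called in that direction) and positive for 1 (6.78%). DESeq2 called 188 genes (1.16%) at an FDR below 0.05, none of them a member, with 7 members at an unadjusted p below 0.05 (14.3% of all genes). Limma with voom called 0 genes, with 10 members at an unadjusted p below 0.05 (12.9% of all genes).

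The slopes leaned to one side, with small sizes. The slope was negative, meaning lower levels in cows with heavier calves, for 73 of the 90 members (81.1%), against 53.4% of all genes, 57 of 77 mitochondrial ribosomal protein genes and 75 of 84 cytosolic ribosomal protein genes. Because members tended to be high in the same cows, these are not 90 separate observations. Markers of blood cells also had slopes of mostly one sign: negative for 10 of 10 B cell genes (median -0.0073), 8 of 9 monocyte genes (-0.0088) and 8 of 11 erythroid genes (-0.016), and positive for 8 of 9 natural killer cell genes (0.0074) and 6 of 10 platelet genes (0.0079). Negative slopes numbered 9 of 15 in the neutrophil list and 8 of 15 in the T cell list. Single markers with an unadjusted p below 0.05 in edgeR were HBB (-0.072), IL5RA (0.053), PADI4 (0.034), NCR1 (0.023) and ITGA2B (0.021). The slopes of the members were refitted with the T cell, neutrophil or erythroid score as a covariate, and ATP5IF1 with the erythroid score is given below. With that score the unadjusted edgeR p went from 0.0338 to 0.0509 for NDUFB8 and from 0.0350 to 0.0729 for COX6A1. It went from 0.0535 to 0.0380 for NDUFS3 and from 0.132 to 0.0468 for NDUFA8. Counts over the members in these refits are not given here. The part of the other markers in the slopes of the respiratory chain genes was not tested. The median slope was -0.0038 on the log2 scale per kg, against -0.00072 over all genes, which amounts to a change of -2.60% per 10 kg. Median slopes were between -0.0042 and -0.0031 in each of the 7 groups. Negative slopes numbered 7 of 7 in complex I core subunits, 22 of 30 in accessory subunits, 6 of 8 in assembly factors, 3 of 4 in complex II, 7 of 8 in complex III, 11 of 15 in complex IV and 17 of 18 in ATP synthase. Across all 20 cows the mean z-score of the members had an r of -0.49 with BW (rho = -0.54, and -0.46 without the cows with the 30 and 72.5 kg calves).

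The slopes depended in part on single libraries. Without the cow with the 39 kg calf, 9 members had an unadjusted p below 0.05 (all genes 12%) and 74 slopes were negative. Without the cow with the 50 kg calf there were 5 members at that level (all genes 14.1%), namely NDUFAF4, UQCRFS1, COX7A2, ATP5F1E and ATP5PO, and 68 negative slopes. Without both there were 4 (all genes 12.1%). With the cytosolic ribosomal protein score as a covariate, an alternative added after seeing the data, 8 members had an unadjusted p below 0.05 (all genes 13.7%), 3 of them with a positive slope, and 63 slopes were negative. In edgeR 0 members had an FDR below 0.05 in each of these fits, against 2 genes (0.0123%) with that covariate and 0 genes in the others. With all 20 cows 4 genes (0.0247%) passed, and DESeq2 on the cows other than that of the 39 kg calf called 91 genes (0.562%), 0 of them members in either case.

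**Figure D4:**
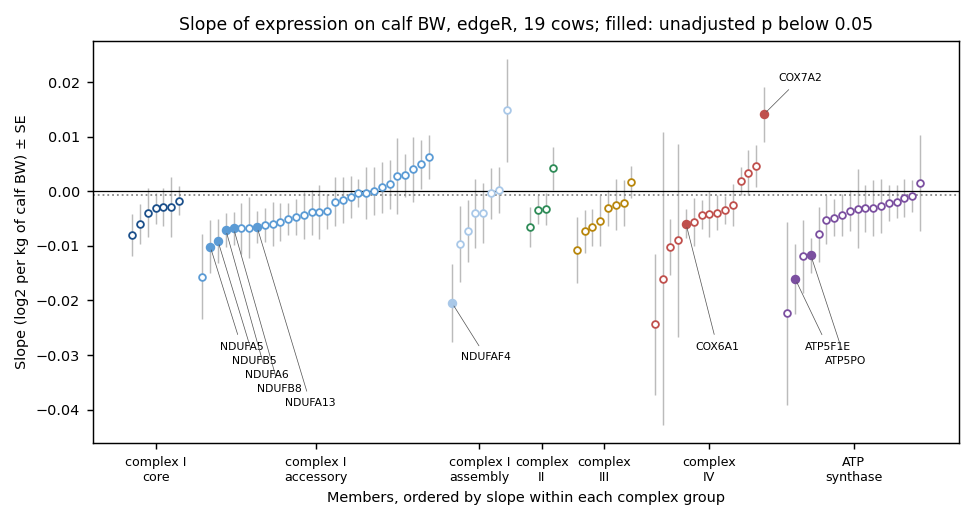
Slope on calf BW (log2 change per kg, y axis) of each of the 90 respiratory chain genes, ordered by slope within each part of the chain (x axis), from edgeR in 19 cows. Bars are SE, filled points have an unadjusted p below 0.05 and the dotted line is the median slope of all tested genes; 73 of the 90 points lie below 0, most of them close to it.

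Among members with negative slopes, the smallest p belonged to ATP5PO (Entrez gene 281640), which encodes a subunit of the peripheral stalk that keeps the head of ATP synthase from turning. Its level was 46.3 CPM in the lowest cow, that of the 50 kg calf, 53.8 in the median cow and 62.1 in the highest, that of the 47.4 kg calf. The slope was -0.012 ± 0.0032 (SE) per kg, or -7.79% per 10 kg, with an unadjusted p of 0.00149 and an FDR of 0.146 in edgeR, and an FDR of 0.0525 in DESeq2. These values include the library of the 39 kg calf. Without it, edgeR gave an unadjusted p of 0.00236 and an FDR of 0.230. The lowest and the highest cow thus had calves of similar weight, and the slope was negative with an unadjusted p below 0.05 whichever of the 19 cows was left out.

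NDUFAF4 (Entrez gene 615440), an assembly factor of complex I, had 2.73, 3.94 and 5.60 CPM in the lowest, median and highest cow, those of the 53 kg calf at the low end and the 37 kg calf at the high end. Its slope was -0.020 ± 0.0071 per kg, or -13.2% per 10 kg (edgeR, p = 0.00931, FDR = 0.214). ATP5F1E (Entrez gene 617230), the epsilon subunit of the central stalk of ATP synthase, had 68.1, 108 and 144 CPM, lowest in the cow with the 50 kg calf and highest in that of the 35 kg calf. Its slope was -0.016 ± 0.0063 per kg (edgeR, p = 0.0196, FDR = 0.261). Without the cow with the 39 kg calf, the edgeR FDR was 0.298 for NDUFAF4 and 0.341 for ATP5F1E. Both genes were at the light end of BW in their highest cow. The next were the accessory subunits NDUFA6, with -0.0071 ± 0.0031 per kg (edgeR, p = 0.0333, FDR = 0.312), and NDUFB5, with -0.0091 ± 0.0040 (edgeR, p = 0.0336, FDR = 0.314), which had an unadjusted p below 0.05 in 12 and 13 of the 19 fits that left out 1 cow. In those fits the largest p was 0.104 for NDUFA6, without the cow with the 32 kg calf, and 0.0777 for NDUFB5, without that of the 55 kg calf. ATP5F1E passed in 17, with 0.0580 without the cow with the 32 kg calf and 0.0534 without that of the 35 kg calf.

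COX7A2 (Entrez gene 327688), the widely expressed form of subunit 7A of complex IV, was the only member with a positive slope and an unadjusted p below 0.05. It had 6.63 CPM in the lowest cow, that of the 37 kg calf, 9.27 in the median cow and 11.6 in the highest, that of the 55 kg calf. The slope was 0.014 ± 0.0051 per kg, or 10.3% per 10 kg (edgeR, p = 0.0109, FDR = 0.221). It kept this sign and an unadjusted p below 0.05 in each fit that left out 1 of the 19 cows. Without the cow with the 39 kg calf its edgeR FDR was 0.302. With the cow with the 72.5 kg calf included the slope was 0.0042 and p was 0.414, so that the heaviest calf did not lie on the same line. The next positive slopes were those of NDUFAF2 (0.015, p = 0.131), NDUFA8 (0.0063, p = 0.132), COX6B1 (0.0047, p = 0.240) and NDUFB7 (0.0050, p = 0.287), all from edgeR and unadjusted.

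ATP5IF1 varied more among cows than any other member except COX6B2. The gene (Entrez gene 327699) encodes the inhibitor that blocks ATP hydrolysis by ATP synthase, and it is known to be needed for heme synthesis in erythroid cells. Its level was 115 CPM in the lowest cow, that of the 46 kg calf, 202 in the median cow and 585 in the highest, that of the 54 kg calf. The cows with the 36 kg and 35 kg calves followed with 515 and 383 CPM. These high cows had calves of very different weights, and the slope on BW was -0.022 per kg (edgeR, p = 0.198). This value depended on single cows, being -0.052 without the cow with the 54 kg calf (p = 0.00023, FDR = 0.120) and -0.014 without that of the 36 kg calf (p = 0.408).

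ATP5IF1 rose with a score of 11 erythroid genes. The slope was 1.01 ± 0.099 on the log2 scale per unit of the score in 20 cows (edgeR with Benjamini-Hochberg adjustment, FDR = 6.3e-06). Only 9 of all genes (0.0555%) passed an FDR below 0.05 with this score, and ATP5IF1 was the only member. The others were HBB, HBG, HBA1 and HBA, which encode globins, and REEP1, SV2C, SPINK9 and LOC100847469. Without the cows with the 54 kg and 36 kg calves the slope was 0.79 (FDR = 0.0016), and without the cow with the 39 kg calf it was 1.02 (FDR = 1.6e-05), in fits that called 0.037% and 0.0494% of all genes. These fits were added after the spread of ATP5IF1 had been seen, and HBB, HBA and HBA1 are themselves part of the score.

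Among single erythroid genes, the correlation of ATP5IF1 with HBB was 0.94 (rho = 0.95, and 0.92 without the 2 farthest cows), and that with ALAS2 was 0.66 (rho = 0.73, and 0.59), which encodes the first enzyme of heme synthesis in erythroid cells. HBB, the beta globin, had 46.9 CPM in the lowest cow, 103 in the median cow and 1059 in the highest, that of the 36 kg calf. Among the 11 erythroid genes, SLC4A1, HBM, HBA and HBA1 were each at 0 in at least 1 cow, and the list summed to 57.4, 130 and 1110 CPM in the lowest, median and highest cow. The platelet score also had an r of 0.65 with ATP5IF1 (0.45 without the 2 farthest cows). With the erythroid score as a covariate, the slope of ATP5IF1 on BW was -0.011 (edgeR, p = 0.177).

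**Figure D5:**
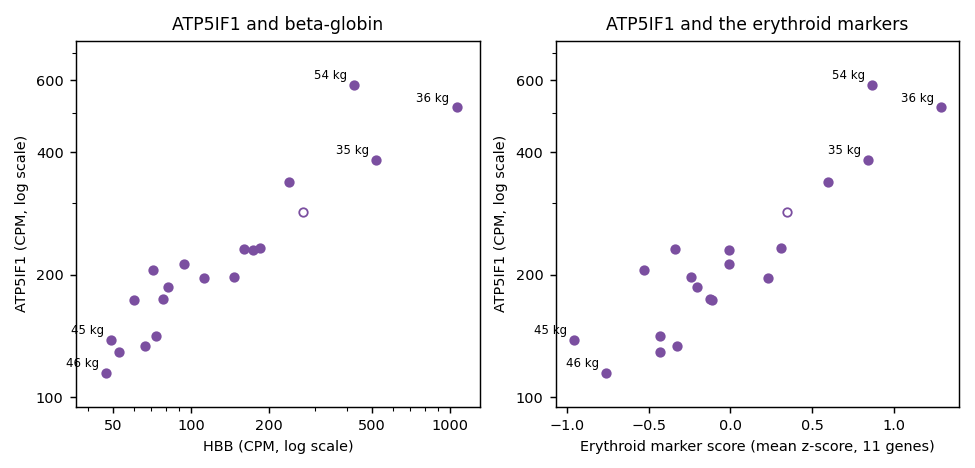
Level of ATP5IF1 (CPM, log axis) in each of the 20 cows against HBB (CPM, log axis) and against the erythroid marker score, with 1 point per cow and the cow with the 39 kg calf as an open circle. ATP5IF1 rises from 115 to 585 CPM along both axes, with r = 0.91 for the score and r = 0.94 for HBB.

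Few other members went with a blood cell score at an FDR below 0.05 in the same kind of fit. With the monocyte score 3 of 90 rose, NDUFS8 (slope 0.17, FDR = 0.013), ATP5PB (0.092, FDR = 0.037) and SDHB (0.10, FDR = 0.039), against 7.69% of all genes, and NDUFS8 alone was called without the cow with the 39 kg calf (6.29% of all genes). With the B cell score 3 fell, ATP5MF (-0.11, FDR = 0.017), NDUFS5 (-0.11, FDR = 0.037) and COX6B1 (-0.11, FDR = 0.043), against 2.68% of all genes, and COX6B1 was not called without the cow with the 39 kg calf (2.26%). With the T cell score ATP5MF rose (0.12, FDR = 0.032; all genes 1.62%), a call that was lost without the cow with the 50 kg calf (1.51%). There were 0 members with the neutrophil (1.81%), natural killer cell (1.17%) and platelet scores (0.512%) in edgeR. At an unadjusted p below 0.05, 25 members fell and 1 rose with the B cell score (13.6% of all genes). With the T cell score 20 rose and 0 fell (11.9%), and 11 rose without the cow with the 50 kg calf (10.9%). Numbers rising and falling were 9 and 1 with monocyte (21.3%) and 6 and 2 with neutrophil scores (16.5%). They were 4 and 0 with erythroid (7.21%), 2 and 0 with platelet (10.1%) and 1 and 1 with natural killer cell scores (13.9%).

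The other genes of the pathway showed no FDR below 0.05 with calf BW either. Among the 13 mitochondrially encoded subunits, 8 slopes were positive and 5 negative, and ND1 alone had an unadjusted p below 0.05 (slope 0.0060, p = 0.0433). Of the carriers, CYC1, the cytochrome c1 of complex III, had a median of 29.3 CPM and a slope of -0.0047 (p = 0.311), and CYCS, cytochrome c, had 21.0 CPM and 0.0072 (p = 0.0783). Assembly factors outside the rule had 39 negative and 14 positive slopes among 53 tested. At an unadjusted p below 0.05, 7 of these were negative and 1 positive, or 8 of 53 against 13.9% of all genes.

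SDHAF1, which helps insert iron-sulfur clusters into complex II, had the smallest p of these assembly factors. It had 5.77, 7.22 and 9.07 CPM in the lowest, median and highest cow, those of the 72.5 kg calf and the 30 kg calf at the ends. Its slope was -0.017 ± 0.0040 per kg (edgeR, p = 0.00029, FDR = 0.0976), and it was singled out after its values were seen. Without the cow with the 39 kg calf no gene had an edgeR FDR below 0.157, so SDHAF1 did not stay below 0.1. The other negative ones were TTC19, COX11, AIFM1, UQCC6, COX20 and COX15, and the positive one was UQCC3.

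Regulators of respiratory genes had positive slopes for 10 of 15, against 46.6% of all genes, with a median of 0.00085. At an unadjusted p below 0.05 there were 4 positive and 1 negative, against 6.78% and 7.08% of all genes. GABPB2 (0.010, p = 0.00265), NRF1 (0.0065, p = 0.0196), SP1 (0.0048, p = 0.0299) and YY1 (0.0053, p = 0.0416) had positive slopes, and GABPB1 had a negative one (-0.0096, p = 0.0096), all at an unadjusted p below 0.05 in edgeR and at an FDR of 0.167 or more. NRF1, a transcription factor for many respiratory genes, had 60.0, 71.0 and 76.3 CPM in the lowest, median and highest cow. GABPA, the DNA-binding partner of GABPB1, had a slope of 0.0058 (p = 0.0865), TFAM, which packages mitochondrial DNA, 0.0029 (p = 0.440), and ESRRA 0.00054 (p = 0.850). PPARGC1A, the coactivator of mitochondrial biogenesis, was barely detected, at 0 to 0.544 CPM.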

How the data were processed

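Whole blood was collected in Tempus tubes and its RNA was sequenced. Per the labels and the study's methods, the authors used Trimmomatic, STAR 2.7.0b and featureCounts (Subread 2.0.3) and deposited raw counts per Entrez gene. The labels and the methods name different library kits, the methods an mRNA kit, so whether poly(A) RNA was selected is uncertain. The strand setting and the treatment of reads that match several genes are not given in the sources used here. Symbols came from a RefSeq table of ARS-UCD2.0, another build than that of the counts, so no coordinates are given.

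From the counts, edgeR 4.0.16 (R 4.3.3, TMM, quasi-likelihood test) fitted the slope on calf BW across 19 cows, keeping genes that reached 10 counts in 5 or more of them. P-values were adjusted by Benjamini-Hochberg over all 16206 genes. DESeq2 1.42.0 and limma 3.58.1 with voom were alternatives. CPM used TMM library sizes, log2 CPM a prior count of 2, and a score is the mean z-score of log2 CPM over a list. On simulated counts for 16206 genes with 200 changed, the test on BW recovered 73.5%, with 1.34% of calls false. The planted slopes were many times the median slope of the members (-0.0038 per kg). This recovery therefore does not describe slopes as small as those of the members. The closest pair of libraries still differed by 12.1 times the counting error (chi-square per degree of freedom).

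The members and lists were chosen with earlier results of these data known. Genes named were the highest and lowest of each group, those with the smallest p for BW, the alternative forms, the most and least correlated, the most and least variable and the untested symbols. The cows with the 39 kg and 50 kg calves were left out after their libraries were seen. Results for some genes are not reported here.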

Additional observations from a re-analysis of the deposited data

How the results depend on the processing

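The count of members at an unadjusted p below 0.05 for calf BW was 10, and it was 6 among genes with any count. DESeq2 without the cow with the 50 kg calf gave 5, voom without it 4, DESeq2 without the cow with the 39 kg calf 5, and edgeR without both cows 4. Leaving out each of the 19 cows in turn gave 4 to 15 members: 4 without the cow with the 35 kg or the 37 kg calf, 5 without that of the 50 kg calf, 6 without that of the 32, 36 or 53 kg calf and 15 without that of the 47.4 kg calf. In those fits 68 to 75 slopes were negative, the median slope ran from -0.0052 to -0.0028 and 0 members had an FDR below 0.05. The median pairwise correlation stayed within 0.179 to 0.215 whichever cow was left out. Without the cow with the 50 kg calf the T cell score called 0 members, and without that of the 39 kg calf the monocyte score called 1 and the B cell score 2 in place of 3. As the sum instead of the median over members, the level in the median cow was 248, 969 and 81.0 CPM for core subunits, accessory subunits and assembly factors of complex I, and 299, 346, 875 and 1389 CPM for complexes II, III, IV and ATP synthase. The causes of these shifts were not tested. CPM per kb and a motif search in promoters were not run, because the tables used here hold neither lengths nor sequences. No paired analysis was possible because all cows belonged to 1 group. Genes under about 5 CPM, such as COX6B2, rest on few counts.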
